A study of Mus musculus with 22 samples.

Results

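Plasma protein genes read in kidney RNA were followed here: the fibrinogen chains Fga, Fgb and Fgg, albumin (Alb), the apolipoproteins Apoh and Apom, kininogen 1 (Kng1) and haptoglobin (Hp). These 8 genes, of 32858 in the count table, were chosen by their CPM (counts scaled by library size and composition) in all 22 kidneys over 4 groups, with the group pattern already known. Their levels and fold changes between groups are therefore given as a description. Counts of these genes past the call thresholds, and permutation p values, describe the same kidneys and are not read as support. All mice were male C57Bl6/J animals 8 to 10 weeks old. The vehicle group (n = 5) received the carrier, a mixture of DMSO, cremophor and saline, and the KW6002 group (n = 6) received istradefylline (KW6002), an adenosine receptor antagonist, at 3 mg/kg daily from day -5 to day 7. The cisplatin group (n = 5) received 6 daily injections of cisplatin at 3 mg/kg, and the co-treated group (n = 6) received cisplatin plus KW6002 at these doses. Kidneys were collected 72 hours after the last cisplatin injection. Each mouse gave 1 library of polyadenylated RNA, with totals from 26471762 to 40510754 counts.

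Fibrinogen is assembled from alpha, beta and gamma chains encoded by Fga, Fgb and Fgg, and thrombin turns it into the fibrin of a clot. Hepatocytes are the main source of the plasma proteins described here, and in the liver the acute phase response, driven largely by interleukin 6, raises fibrinogen and haptoglobin while albumin is a negative acute phase protein. Injured renal tubules are also known to express fibrinogen chains, and apolipoprotein M, which carries sphingosine 1-phosphate on lipoproteins, is made in the proximal tubule as well as in the liver.

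The libraries carried the markers of kidney. Summed over 10 proximal tubule markers, of which the phosphate transporter Slc34a1 was the most abundant, the level was 22932 ± 413 CPM (SD, n = 5) in vehicle kidneys. The thick ascending limb list, led by Umod, summed to 6370 ± 1389 CPM, the distal convoluted tubule list, led by Slc12a3, to 1638 ± 27.5 CPM, and the podocyte list, led by Podxl, to 454 ± 31.0 CPM in the same 5 kidneys. The collecting duct list (Aqp2), the intercalated cell list (Slc26a4) and the endothelial list (Kdr) summed to 435 ± 98.9, 267 ± 16.2 and 323 ± 8.97 CPM. Hepatocyte markers were few in count. Of 16 hepatocyte markers, 14 had a row in the table and 3 had enough counts to be tested. Of the 14, Cps1, Cyp3a11, Cyp1a2 and Hsd17b13 had at most 3 counts in each of the 22 libraries, and are named after their values were seen. The summed hepatocyte list lay between 2.66 and 10.1 CPM over all 22 kidneys. Fga, Fgg, Apom and Hp averaged more than the mean sum of the same group in all 4 groups, and Kng1 less, while vehicle Alb (9.08 ± 1.01 CPM) and Apoh (8.51 ± 0.685 CPM) were of its size, and cisplatin Alb (1.46 ± 0.542 CPM) and Apoh (1.81 ± 0.679 CPM) and vehicle Fgb (2.02 ± 0.334 CPM) were below it. The part of hepatocyte RNA in these levels was not tested. The most abundant hepatocyte markers were Cyp2f2 without cisplatin, at 3.50 ± 1.35 CPM in vehicle and 3.15 ± 1.56 CPM in KW6002 kidneys, and Fabp1 with it, at 2.49 ± 1.51 CPM in cisplatin and 5.35 ± 1.75 CPM in co-treated kidneys. With cisplatin 1 of the 3 tested hepatocyte markers (Cyp2f2) fell, and 1 (Fabp1) rose in co-treated against cisplatin kidneys, a call lost without cisplatin replicate 1 or 2 or co-treated replicate 6 (count of 0 in each).

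The 3 fibrinogen genes lie side by side on chromosome 3 in the order Fgg, Fga and Fgb, within 42.1 kb at chr3:83007724-83049863 (GRCm38). Fgg and Fga are on the plus strand and Fgb on the minus strand. Their identifiers are ENSMUSG00000033860, ENSMUSG00000028001 and ENSMUSG00000033831. Alb (ENSMUSG00000029368) lies at chr5:90460897-90476602, Apoh (ENSMUSG00000000049) at chr11:108343354-108414396, Apom (ENSMUSG00000024391) at chr17:35128997-35132050, Kng1 (ENSMUSG00000022875) at chr16:23057865-23082078 and Hp (ENSMUSG00000031722) at chr8:109575128-109579172. Promoter windows of 300 bases (250 before and 50 after the gene's start, RefSeq, GRCm38.p6) were held for 6 of the 8 members, all but Kng1 and Hp. Those of the fibrinogen chains, which rise together in these kidneys, and of Alb, which falls, are printed 5′ to 3′ on the strand of the gene, with capitals for every match to a motif of liver and acute phase regulators on either strand. The letters searched were GTTAATNAT for HNF1, TTGCNNAA for C/EBP, CTGGGA for the interleukin 6 response element and TTCNNNGAA for STAT factors. The windows are chr3:83025903-83026202 (plus strand) for Fga, chr3:83049814-83050113 (minus strand) for Fgb, chr3:83007474-83007773 (plus strand) for Fgg and chr5:90460620-90460919 (plus strand) for Alb.
Fga promoter: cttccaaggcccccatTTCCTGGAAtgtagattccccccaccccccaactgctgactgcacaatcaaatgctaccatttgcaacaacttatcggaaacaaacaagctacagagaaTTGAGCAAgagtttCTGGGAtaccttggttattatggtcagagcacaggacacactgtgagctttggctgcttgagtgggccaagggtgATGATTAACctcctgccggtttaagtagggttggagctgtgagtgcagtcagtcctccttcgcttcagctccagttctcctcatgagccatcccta
Fgb promoter: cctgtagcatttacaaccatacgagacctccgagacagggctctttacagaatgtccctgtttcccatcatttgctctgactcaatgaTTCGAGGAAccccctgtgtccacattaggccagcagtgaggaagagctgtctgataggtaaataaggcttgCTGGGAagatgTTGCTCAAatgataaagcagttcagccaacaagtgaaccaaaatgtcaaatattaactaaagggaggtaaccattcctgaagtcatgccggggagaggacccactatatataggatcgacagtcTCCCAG
Fgg promoter: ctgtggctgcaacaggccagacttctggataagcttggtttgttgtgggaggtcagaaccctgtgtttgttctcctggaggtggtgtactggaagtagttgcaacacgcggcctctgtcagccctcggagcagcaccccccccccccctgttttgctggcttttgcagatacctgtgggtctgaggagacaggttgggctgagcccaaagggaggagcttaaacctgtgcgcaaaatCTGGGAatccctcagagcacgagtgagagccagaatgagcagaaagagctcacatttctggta
Alb promoter: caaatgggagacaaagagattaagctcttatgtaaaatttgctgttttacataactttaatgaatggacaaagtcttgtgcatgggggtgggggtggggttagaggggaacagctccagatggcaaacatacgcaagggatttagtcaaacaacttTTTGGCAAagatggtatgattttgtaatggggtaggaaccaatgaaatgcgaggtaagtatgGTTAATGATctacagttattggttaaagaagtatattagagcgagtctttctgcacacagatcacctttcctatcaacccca

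Fga held all 4 motifs, with the HNF1 match ATGATTAAC on the opposite strand starting 46 bases before the gene's start. Fgb held the STAT, interleukin 6 and C/EBP letters, the C/EBP match TTGCTCAA lying 80 bases before the start, and a further CTGGGA on the opposite strand after it. Fgg held CTGGGA alone, 13 bases before the start. Alb held the C/EBP letters on the opposite strand and the HNF1 match GTTAATGAT 32 bases before the start, and neither the Apoh window (chr11:108395047-108395346) nor the Apom window (chr17:35131752-35132051) held any of the 4. Distances are counted from the RefSeq start, which equals the GENCODE start given above for Fgg and Fgb, lies before it for Alb, and lies inside the GENCODE gene model for Fga, Apoh and Apom. The Fga match to HNF1 thus falls inside its GENCODE model, as does the whole Apoh window and nearly all of the Apom window. No match overlapped another. Among all 32851 promoter windows, 0.801% held the HNF1 letters, 10.8% the C/EBP letters, 8.30% the STAT letters and 31.8% the interleukin 6 letters, so the short CTGGGA is common. A match describes the letters only.

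Fga, the alpha chain, was the most abundant of the chains. Vehicle kidneys had 39.8, 36.9, 34.6, 31.2 and 25.4 CPM (replicates 1 to 5), and KW6002 kidneys ran from 17.8 over a median of 32.9 to 56.6 CPM. Cisplatin kidneys had 842, 1089, 868, 908 and 899 CPM. Co-treated kidneys ran from 362 over a median of 619 to 918 CPM. Every kidney given cisplatin, with or without KW6002, was above every kidney without it, while the cisplatin and co-treated groups overlapped. The means were 33.6 ± 5.56, 35.9 ± 15.0, 921 ± 97.3 and 641 ± 189 CPM (SD, n = 5, 6, 5 and 6) for vehicle, KW6002, cisplatin and co-treated kidneys.

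Fgg, the gamma chain, had 12.6, 16.4, 10.1, 10.2 and 10.1 CPM in vehicle kidneys and 6.82 to 14.0 CPM in KW6002 kidneys, with a median of 8.53. In cisplatin kidneys it had 501, 645, 511, 499 and 422 CPM. Co-treated kidneys ran from 117 over a median of 207 to 300 CPM. Fgg was thus the fibrinogen chain for which the co-treated group lay wholly below the cisplatin group. The gene shares 3.23% of its stretches of 50 bases with the antisense transcript Gm30097, which averaged 1.46 CPM, and reads of the 2 genes cannot be separated there unless strand was used in counting.

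Fgb, the beta chain, was far less abundant. Vehicle kidneys had 2.14, 2.09, 2.18, 2.25 and 1.43 CPM, and KW6002 kidneys ran from 0.613 over a median of 1.52 to 3.27 CPM. Cisplatin kidneys had 91.5, 76.4, 81.0, 80.8 and 61.3 CPM, and co-treated kidneys ran from 19.0 over a median of 42.9 to 63.8 CPM. As for Fga, the groups with and without cisplatin were apart, and the cisplatin and co-treated groups overlapped. Summed over the 3 chains, fibrinogen mRNA had 1382 to 1810 CPM in cisplatin kidneys, 498 to 1276 CPM in co-treated kidneys and at most 73.1 CPM in kidneys without cisplatin.

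**Figure D1:**
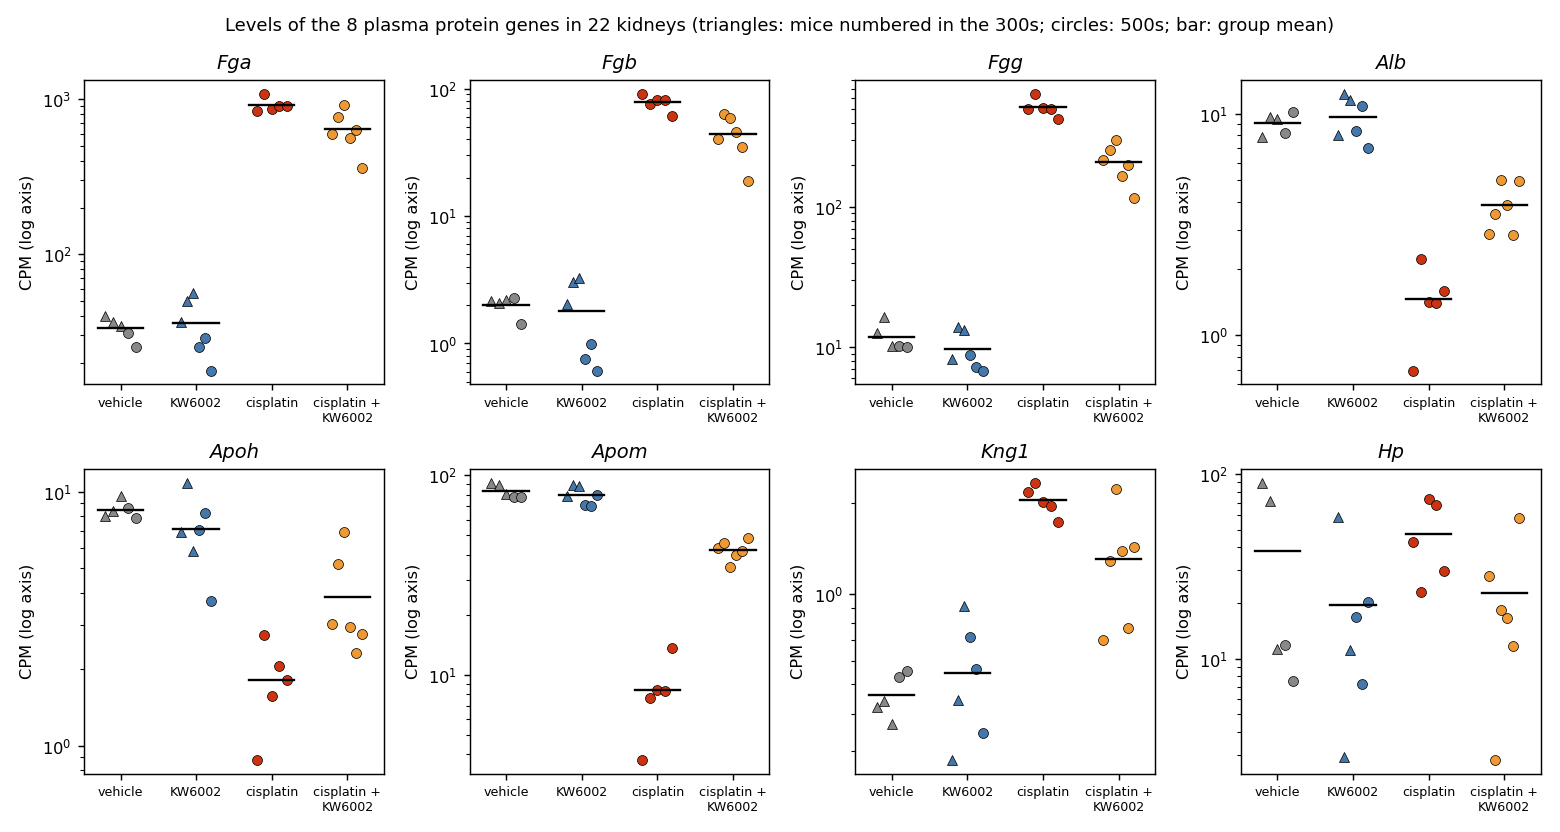
CPM (log axis) of each of the 8 genes in every kidney by group, with a bar at the group mean, triangles for mice numbered in the 300s and circles for mice numbered in the 500s. Fga, Fgb and Fgg are higher in all kidneys given cisplatin, Alb, Apoh and Apom lower in the cisplatin group than in vehicle kidneys, and Hp is scattered from 2.82 to 89.5 CPM across the groups.

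Control kidneys were not uniform. Labels number the mice in the 300s (3 vehicle and 3 KW6002 kidneys) or in the 500s (all others, including every kidney given cisplatin). Among KW6002 kidneys, Fgb was 2.79 ± 0.652 CPM (SD, n = 3) in the 300s and 0.784 ± 0.187 CPM (n = 3) in the 500s, with no overlap. Fga was 47.9 ± 10.1 and 24.0 ± 5.68 CPM in these kidneys, also without overlap. Fgg (8.30 to 14.0 and 6.82 to 8.76 CPM), Alb, Apoh, Apom, Kng1 and Hp overlapped between the 2 series. The share of all genes without overlap is not given, so nothing further is read from this. In vehicle kidneys the difference in Fga was smaller, at 37.1 ± 2.62 CPM (n = 3) and 28.3 ± 4.07 CPM (n = 2), but again without overlap. Vehicle Apom (80.6 to 91.5 CPM in the 300s and 77.8 to 78.0 CPM in the 500s) did not overlap. Nor did vehicle Kng1, at 0.370 to 0.441 and 0.528 to 0.553 CPM. Vehicle Fgb overlapped, at 2.09 to 2.18 CPM in the 300s and 1.43 to 2.25 CPM in the 500s, as did Fgg, Alb, Apoh and Hp. So few kidneys can lie apart by chance, so nothing is read from these splits either. No mouse given cisplatin was numbered in the 300s, so within-series comparisons with cisplatin were possible for the 500s alone, in which the log2 fold changes of Fga, Fgb and Fgg between cisplatin and vehicle were 5.02, 5.41 and 5.66.

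Alb, Apoh and Apom had the opposite order. Apom had 91.5, 88.9, 80.6, 77.8 and 78.0 CPM in vehicle kidneys and 69.8 to 89.7 CPM in KW6002 kidneys, with a median of 79.1. In cisplatin kidneys it had 3.76, 7.69, 8.42, 8.32 and 13.7 CPM, and in co-treated kidneys it ran from 34.8 over a median of 42.3 to 48.5 CPM. The co-treated group lay between the cisplatin group and the groups without cisplatin and overlapped none of them. Vehicle and KW6002 kidneys overlapped.

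Alb had 7.84, 9.70, 9.48, 8.21 and 10.2 CPM in vehicle kidneys and 0.693, 2.21, 1.41, 1.39 and 1.59 CPM in cisplatin kidneys. KW6002 kidneys ran from 6.97 over a median of 9.61 to 12.3 CPM and co-treated kidneys from 2.85 over a median of 3.70 to 5.04 CPM. Kidneys without cisplatin, co-treated kidneys and cisplatin kidneys did not overlap, in falling order. Apoh, which encodes beta-2-glycoprotein I, had 8.03, 8.38, 9.61, 8.63 and 7.88 CPM in vehicle kidneys and 0.879, 2.74, 1.57, 2.06 and 1.81 CPM in cisplatin kidneys. Its co-treated kidneys, from 2.31 over a median of 2.97 to 6.96 CPM, overlapped both the cisplatin group and the KW6002 group (3.72 to 10.8 CPM, median 6.99), but not the vehicle group. The ends of the gene models of Apoh and of Prkca, which is on the opposite strand and averaged 27.2 CPM, overlap, and reads there cannot be assigned without strand.

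In bulk kidney RNA, fewer cells of a type and less RNA per cell cannot be told apart. The fall of Alb, Apoh and Apom went with that of the proximal tubule list, whose sum was 4016 ± 810 CPM in cisplatin kidneys (n = 5) and 10169 ± 1829 CPM in co-treated kidneys (n = 6) against the 22932 CPM of vehicle kidneys. Of its 10 genes, 10 fell with cisplatin and 7 were higher in co-treated than in cisplatin kidneys. Among all tested genes 24.1% and 10.3% were called in these comparisons, in either direction. The same shares stand beside the counts of every other marker list. The marker lists were chosen with earlier results of these data known, so these counts are a description. Slc34a1 had 7585, 231 and 3063 CPM in vehicle, cisplatin and co-treated kidneys. The list of injured tubule markers, led by osteopontin (Spp1), went with the fibrinogen chains, at 895 ± 33.6, 14288 ± 1101 and 6557 ± 615 CPM in the same groups, and 7 of its 8 genes rose with cisplatin and 7 fell with co-treatment. The thick ascending limb list had 4 of 4 genes lower with cisplatin and 3 higher with co-treatment, the distal convoluted tubule list 3 of 3 and 2, and the intercalated cell list 2 of 4 and 2. Of the 5 collecting duct genes 1 rose with cisplatin, and edgeR called none of the 4 podocyte or 4 endothelial genes in either comparison, with 4 and 2 of them at an adjusted p below 0.05 with cisplatin and 1 and 2 with co-treatment. The part of these changes in the levels of the plasma protein genes was not tested.

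Kng1 encodes a precursor of bradykinin and was close to the limit of counting, with 9 to 93 counts per library. Vehicle kidneys had 0.421, 0.441, 0.370, 0.528 and 0.553 CPM and cisplatin kidneys 2.18, 2.34, 2.03, 1.95 and 1.73 CPM. KW6002 kidneys ran from 0.281 over a median of 0.503 to 0.914 CPM and co-treated kidneys from 0.703 over a median of 1.34 to 2.23 CPM. The cisplatin group was above both groups without cisplatin and overlapped the co-treated group. Of the stretches of 50 bases in Kng1 transcripts, 17.2% occur in its neighbour and paralog Kng2, which had 234 ± 39.6 CPM in vehicle kidneys and 305 ± 41.9 CPM in cisplatin kidneys and was not called. The authors kept uniquely aligned reads, so reads identical in both genes would count for neither, and Kng1 is read from the rest of its sequence.

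Hp, the hemoglobin-binding protein, did not separate the groups over all 22 kidneys. Vehicle kidneys had 89.5, 71.5, 11.3, 11.8 and 7.52 CPM and cisplatin kidneys 43.0, 23.0, 72.9, 67.7 and 29.7 CPM. KW6002 kidneys ran from 2.93 over a median of 13.9 to 58.2 CPM and co-treated kidneys from 2.82 over a median of 17.5 to 57.9 CPM. All 4 groups overlapped, and the SD of 39.0 CPM in vehicle kidneys was as large as their mean of 38.3 CPM. In the 500s alone, cisplatin kidneys, at 23.0 to 72.9 CPM, lay above the vehicle kidneys (7.52 and 11.8 CPM, n = 2) and the KW6002 kidneys (7.28 to 20.2 CPM, n = 3), and the log2 fold change between cisplatin and vehicle was 2.29 in place of 0.30. Co-treated kidneys overlapped each of these groups. Groups as small as these can lie apart by chance, and the share of all genes without overlap is not given, so nothing is read from this separation.

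Within groups, Hp varied with the fat markers. All 10 genes of the fat list (Adipoq, Plin1, Cidec, Lep, Retn, Cfd, Fabp4, Car3, Lipe and Ucp1) had enough counts to be tested, and Fabp4, the most abundant, averaged 296 CPM in vehicle kidneys. Their summed level was 1363, 2372, 570, 578 and 300.3 CPM in vehicle replicates 1 to 5, 545, 573, 1037, 1065 and 682 CPM in cisplatin replicates 1 to 5, 146 to 1090 CPM in KW6002 kidneys and 74.7 to 644 CPM in co-treated kidneys. The 2 vehicle kidneys with the highest Hp were those with the most fat RNA, and the KW6002 and co-treated kidneys with the lowest Hp those with the least. With cisplatin edgeR called 0 of the 10 fat markers, with 3 at an adjusted p below 0.05, and 4 fell in co-treated against cisplatin kidneys. Hp was chosen by CPM in these same kidneys, so the permutation p values that follow describe the data and are not independent support. Over deviations from the group means in 22 kidneys, log2 Hp and the log2 fat sum gave Pearson's r = 0.91 (2-sided permutation p = 2e-05, adjusted p = 0.00112 over 56 relations between the 8 genes and 7 marker sums) and Spearman's rho = 0.94 (permutation p = 1e-05, the smallest possible, adjusted p = 0.00056). Without the 2 kidneys farthest from the median fat level r was 0.95, and in the 16 kidneys of the 500s alone it was 0.85 (permutation p = 0.00216, adjusted p = 0.121). Hp also went with the summed platelet (r = 0.82), macrophage (r = 0.73) and hepatocyte (r = 0.71) lists, with permutation p = 0.00022, 0.00179 and 0.00034 (adjusted p = 0.00616, 0.0251 and 0.00635). For these lists rho was 0.78, 0.74 and 0.74 (permutation p = 0.00065, 0.00153 and 0.0003), r without the 2 farthest kidneys was 0.76, 0.61 and 0.80, and r in the 500s alone was 0.59, 0.32 and 0.55, with adjusted permutation p = 0.296, 0.648 and 0.24. No other gene among the 8 had an adjusted p below 0.05 with any of the 7 sums. With the mean of the fat markers as a covariate, chosen after the data were seen, the log2 fold change of Hp between co-treated and cisplatin kidneys was 1.16 in place of -1.06, and the other 7 genes differed by less than their spread between kidneys.

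**Figure D2:**
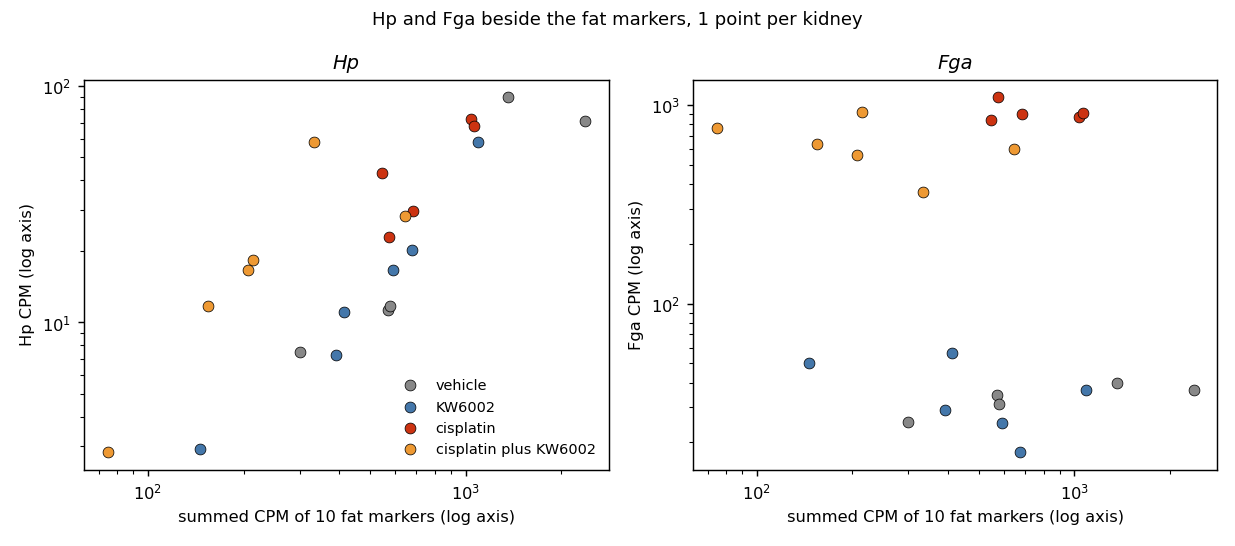
CPM of Hp (left) and of Fga (right) against the summed CPM of 10 fat markers, both on log axes, with 1 point per kidney coloured by group. Hp rises with the fat sum across the kidneys, while Fga separates into kidneys with and without cisplatin over the fat sums that both share, 146 to 1065 CPM.

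Between genes, levels were compared per kilobase of exon. This length merges all annotated exons of a gene and can differ from that of the transcripts expressed. For Kng1 it includes the stretches shared with Kng2. The order of genes depends on these lengths. In vehicle kidneys the order was Apom (82.3 ± 6.32 CPM per kb, SD, n = 5), Hp (23.9 ± 24.3), Fga (11.2 ± 1.85), Fgg (5.69 ± 1.32), Apoh (5.34 ± 0.429), Alb (3.88 ± 0.431), Fgb (0.530 ± 0.0876) and Kng1 (0.142 ± 0.0235). Hp and Fga overlapped, as did Fgg with Apoh, and the other neighbours in this order did not overlap. The Hp range, 4.68 to 55.7 CPM per kb, also covered those of Fgg and Apoh. In cisplatin kidneys the chains led, with Fga at 306 ± 32.3 and Fgg at 246 ± 38.6 CPM per kb, followed by Hp (29.4 ± 13.9), Fgb (20.5 ± 2.88), Apom (8.26 ± 3.49), Apoh (1.14 ± 0.426), Kng1 (0.629 ± 0.0711) and Alb (0.623 ± 0.231). Here Fga overlapped Fgg, Hp overlapped Fgb, and Apoh, Kng1 and Alb overlapped.

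The chains, which enter the protein in equal numbers, were thus unequal in mRNA by this measure, and their proportions moved with treatment. The ratio of Fgg to Fga per kb was 0.456, 0.641, 0.422, 0.473 and 0.569 in vehicle kidneys and 0.856, 0.852, 0.846, 0.790 and 0.675 in cisplatin kidneys. It ran from 0.324 over a median of 0.379 to 0.551 in KW6002 kidneys and from 0.428 over a median of 0.467 to 0.519 in co-treated kidneys. Every cisplatin kidney had a higher ratio than any kidney of the other groups, and the co-treated kidneys lay in the range of the vehicle group. Fgb remained a small fraction of Fga, at 0.0477 ± 0.00594 in vehicle kidneys, 0.0679 ± 0.0134 in cisplatin kidneys and 0.0530 ± 0.0101 in co-treated kidneys, and these 3 groups overlapped. KW6002 kidneys, at 0.0359 ± 0.0111 (0.0237 to 0.0481), lay wholly below the cisplatin kidneys (0.0539 to 0.0859). The ratio of Apom to Alb was 21.5 ± 3.47, 19.7 ± 4.22, 13.6 ± 4.25 and 26.8 ± 7.29 in vehicle, KW6002, cisplatin and co-treated kidneys. These ratios come from the contrasts that chose the genes and are a description.

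**Figure D3:**
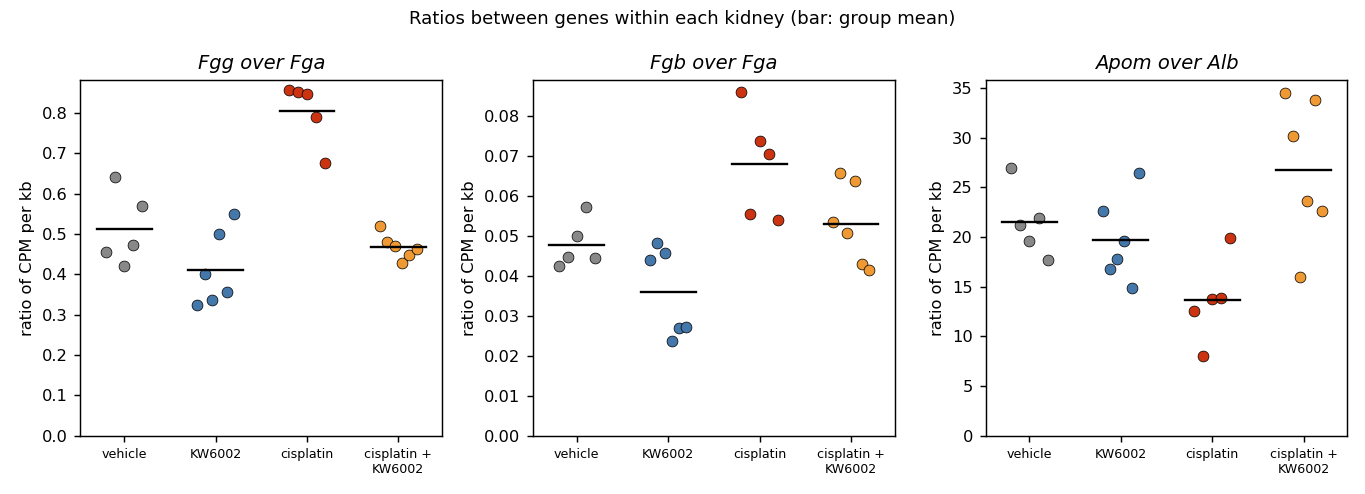
Ratios of CPM per kb between genes of the same kidney (linear axis from 0), with a bar at the group mean, for Fgg over Fga, Fgb over Fga and Apom over Alb. The 5 cisplatin kidneys have Fgg to Fga ratios from 0.675 to 0.856, above the other 17 kidneys.

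Fitted log2 fold changes summarised these levels. Between cisplatin and vehicle kidneys they were 4.78 ± 0.28 (SE) for Fga, 5.28 ± 0.35 for Fgb and 5.44 ± 0.26 for Fgg, against -2.63 ± 0.23 for Alb, -2.23 ± 0.30 for Apoh and -3.32 ± 0.19 for Apom. Kng1 stood at 2.14 ± 0.29 and Hp at 0.30 ± 0.72. Past the thresholds used for calls (more than a doubling or halving, with edgeR's adjusted p under 0.01) were 4 of the 8 genes upward and 3 downward, where 12.1% of 17131 tested genes were called upward, 12.1% downward and 24.1% in either direction. Since the rule used this contrast, nothing is read from that count. Scaled by library size only, the median gene stood at 0.20 in this comparison in place of -0.01, and 62.6% of called genes were higher, against 2069 of 4137 here. So scaled, the 8 genes had the same signs, with Fga at 4.99 and Alb at -2.42.

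Between co-treated and cisplatin kidneys the chains were lower to unequal degrees, with -0.52 ± 0.23 for Fga, -0.84 ± 0.25 for Fgb and -1.30 ± 0.20 for Fgg. Alb, Apoh and Apom were higher, at 1.40 ± 0.22, 1.08 ± 0.29 and 2.34 ± 0.18, and Kng1 and Hp stood at -0.66 ± 0.25 and -1.06 ± 0.70. Past the thresholds were 3 genes upward and 1 downward, against 4.65% of tested genes upward, 5.66% downward and 10.3% in either direction. The rule used these groups too, so nothing is read from this count. Against vehicle, co-treated kidneys still had Fga, Fgb and Fgg at 4.25 ± 0.27, 4.44 ± 0.34 and 4.14 ± 0.24, and Alb, Apoh and Apom at -1.24 ± 0.20, -1.15 ± 0.27 and -0.98 ± 0.16. There 6 of the 8 genes were past the thresholds, 4 upward and 2 downward, with a background of 5.83% upward, 7.59% downward and 13.4% in either direction, and with library size scaling 56.5% of called genes were higher in place of 43.4%, the median gene stood at 0.16, and Apoh stood at -0.99. The comparisons share their vehicle or cisplatin kidneys, so their values are not independent. The rule used the CPM of all 4 groups, so nothing is read from the count of 6 either.

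Over all their kidneys, the KW6002 and vehicle groups overlapped for each of the 8 genes. The log2 fold changes ran from -0.97 ± 0.71 for Hp to 0.21 ± 0.32 for Kng1, with 0.10 ± 0.23 for Fga and 0.09 ± 0.19 for Alb. With edgeR 0 of 17131 genes were called, or 0%, with 1930 genes at an unadjusted p below 0.05, and DESeq2 called 4 genes. In the mice of the 500s alone, a comparison of 3 with 2 kidneys, Fgb stood at -1.21 and Fgg at -0.42, both without overlap between the groups. The other members overlapped. So few kidneys can lie apart by chance, and the share of all genes without overlap is not given, so nothing is read from this. In these mice Hp turned to 0.61, Fga to -0.24 and Alb to -0.08.

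**Figure D4:**
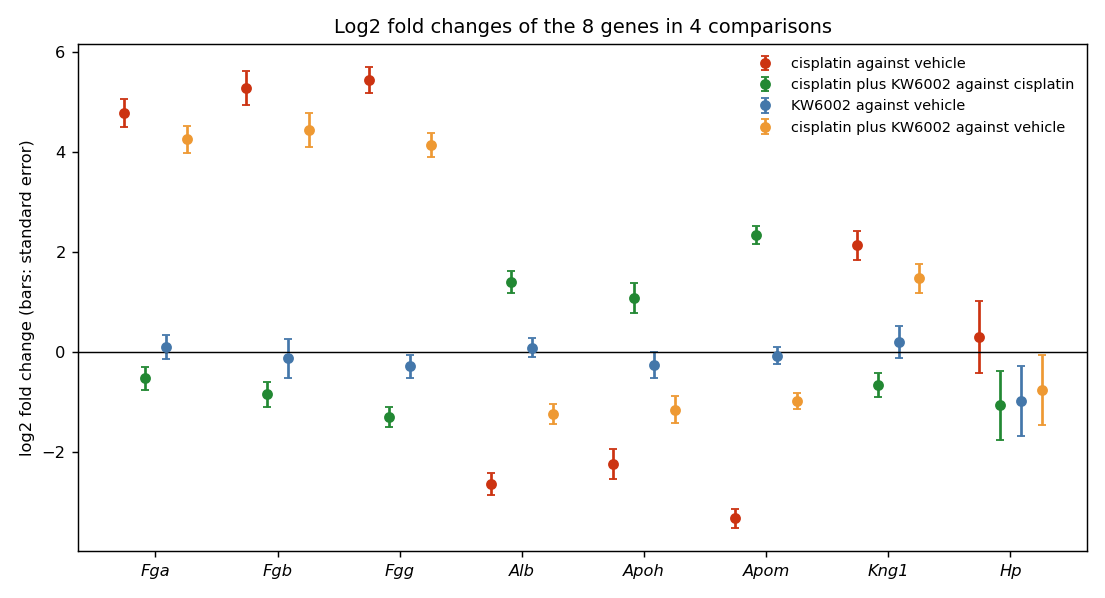
Log2 fold changes of the 8 genes with standard errors in 4 comparisons fitted to 22 libraries. With cisplatin the chains stand between 4.78 and 5.44 and Alb, Apoh and Apom between -3.32 and -2.23, and co-treated against cisplatin kidneys have the opposite sign for each of these 6 genes.

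Within groups, the deviations of the chains from their group means were correlated. These deviations hold no difference between groups, but the genes were chosen by CPM in the same 22 kidneys, so the permutation p values among them describe the data and are not independent support. Over deviations of log2 CPM from the group mean in 22 kidneys, Fga and Fgb had Pearson's r = 0.91 (2-sided permutation p = 3e-05, adjusted p = 0.0007 over 28 pairs) and Spearman's rho = 0.74 (permutation p = 0.00416, adjusted p = 0.0582). For Fga and Fgg r was 0.86 (permutation p = 5e-05, adjusted p = 0.0007) and rho 0.84 (permutation p = 7e-05, adjusted p = 0.00196). For Fgb and Fgg r was 0.76 (permutation p = 0.00056, adjusted p = 0.00523) and rho 0.65 (permutation p = 0.00792, adjusted p = 0.0739). Co-treated replicate 6 had the lowest value of its group for all 3 chains, whereas cisplatin replicate 1 had the highest Fgb and the lowest Fga of its group.

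Alb and Apoh had r = 0.70 (permutation p = 0.00326, adjusted p = 0.0228) and rho = 0.55 (permutation p = 0.0253, adjusted p = 0.121). These were 4 of 28 pairs with an adjusted p below 0.05 for r. Apom, which like Alb was lowest in the cisplatin group and next lowest in the co-treated group, gave r = 0.49 with Alb (permutation p = 0.162, adjusted p = 0.377, with rho = 0.25, permutation p = 0.314) and r = 0.25 with Apoh (permutation p = 0.386, adjusted p = 0.54). Although the group means of fibrinogen and of Apoh move in opposite directions, Fga and Apoh had r = 0.58 within groups (permutation p = 0.01, adjusted p = 0.0561) and rho = 0.51 (permutation p = 0.0258, adjusted p = 0.121). Leaving out the 2 kidneys farthest from the median of the first gene, r was 0.86 for Fga with Fgb, 0.86 for Fga with Fgg, 0.66 for Fgb with Fgg, 0.55 for Alb with Apoh and 0.61 for Fga with Apoh. In the 16 kidneys of the 500s alone these values were 0.84, 0.86, 0.76, 0.73 and 0.74, with adjusted permutation p = 0.0292, 0.0263, 0.0579, 0.0531 and 0.0292.

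**Figure D5:**
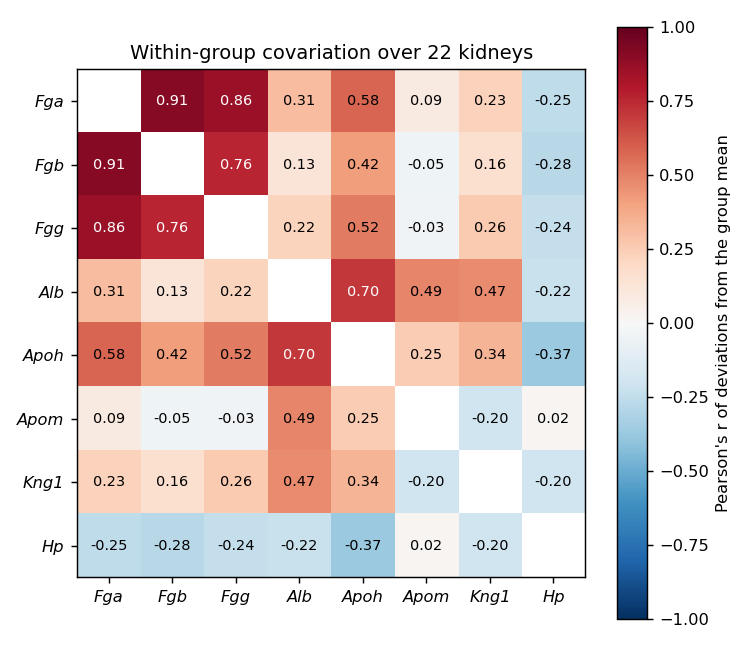
Pearson's r between deviations of log2 CPM from the group mean for each pair of the 8 genes over 22 kidneys, from -1 (blue) to 1 (red). The fibrinogen chains form a block from 0.76 to 0.91, Alb and Apoh have 0.70, and the r values of Hp with the other genes run from -0.37 to 0.02.

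Other genes of clotting and of clot lysis changed in both directions with cisplatin. This list and the other pathway lists below were chosen with earlier results of these data known. Their called shares beside those of all genes are therefore a description and are not read as enrichment. Of 31 listed genes 26 were tested, 11 rose and 8 fell (73.1% called, against 24.1% of all genes, median log2 fold change 0.59 against -0.01 over all tested genes). Plaur, a receptor of the protease urokinase, rose from 6.61 ± 1.67 to 50.4 ± 3.74 CPM (log2 fold change 2.92 ± 0.23, adjusted p = 1.65e-10), and Serpine2, the thrombin inhibitor protease nexin, from 19.3 ± 2.39 to 138 ± 31.5 CPM (2.83 ± 0.14, adjusted p = 2.70e-14). Serpinf2, the antiplasmin gene, fell from 379 ± 25.3 to 28.4 ± 6.27 CPM (log2 fold change -3.74 ± 0.14, adjusted p = 1.07e-15). F13b, the carrier subunit of the enzyme that crosslinks fibrin, fell from 223 ± 13.8 to 20.4 ± 7.76 CPM (-3.45 ± 0.19, adjusted p = 2.94e-13). F10, coagulation factor X, fell from 12 to 30 counts per library to 1 to 6 counts (adjusted p = 2.68e-05).

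In co-treated against cisplatin kidneys 5 of these 26 genes were higher and 7 lower (46.2% called, against 10.3% of all genes, median -0.56 against 0.005). Procr, the protein C receptor (-1.72 ± 0.15, adjusted p = 3.10e-09), and Serpine2 (-1.47 ± 0.12, adjusted p = 1.14e-09) fell. F13b (2.26 ± 0.18, adjusted p = 6.67e-10), Serpinf2 (1.81 ± 0.13, adjusted p = 2.00e-10) and protein C (Proc, 1.11 ± 0.11, adjusted p = 1.18e-08) were higher.

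Of 55 other plasma protein genes 46 were tested, of which 18 rose and 11 fell with cisplatin (63.0% called, against 24.1% of all genes, median 0.49). The acute phase serum amyloid A genes were among those that rose. Saa1 had 0 to 2 counts per vehicle library and 201 to 273 per cisplatin library (adjusted p = 5.16e-13), Saa2 had 0 counts in every vehicle library and 18 to 30 in cisplatin libraries (adjusted p = 9.46e-08), and Saa4 rose by 4.80 ± 0.36 (adjusted p = 4.74e-11). Saa1 and Saa2 are close paralogs, and reads identical in both would count for neither. Hrg, histidine-rich glycoprotein, had 139 to 247 counts in vehicle libraries and 0 to 3 in cisplatin libraries (adjusted p = 1.80e-12). Transthyretin (Ttr) fell from 81.1 ± 9.25 to 3.96 ± 0.790 CPM (-4.36 ± 0.20, adjusted p = 1.41e-14), and Apcs, serum amyloid P, fell by 3.76 ± 0.39 on the log2 scale (adjusted p = 1.09e-08).

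Co-treatment left 5 of these 46 genes higher and 8 lower than cisplatin alone (28.3% called, against 10.3% of all genes, median -0.18). Saa1 fell to 19 to 32 counts per library (-3.01 ± 0.26, adjusted p = 2.44e-09), Saa2 to 1 to 5 counts (adjusted p = 1.02e-05), and Serpina3n from 90.3 ± 24.2 to 15.6 ± 2.91 CPM (-2.53 ± 0.48, adjusted p = 0.000106). With the fat covariate Saa2 (log2 fold change -1.81, adjusted p = 0.0174) and Serpina3n (-1.31, adjusted p = 0.0221) were no longer called. Hrg rose to 5 to 40 counts (adjusted p = 1.33e-05), still below the 139 to 247 counts of vehicle libraries. Azgp1, zinc-alpha-2-glycoprotein, rose from 13.4 ± 3.93 to 41.4 ± 2.62 CPM (1.62 ± 0.15, adjusted p = 6.66e-09). Carboxypeptidase N (Cpn1) rose from 44.6 ± 13.5 to 152 ± 15.5 CPM (1.77 ± 0.13, adjusted p = 3.68e-10), above its vehicle level of 76.1 ± 7.10 CPM.

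Receptors and handling partners of these proteins included the uptake machinery of the proximal tubule. Of 32 genes 31 were tested, 12 rose and 6 fell with cisplatin (58.1% called, against 24.1% of all genes, median 0.70). Megalin (Lrp2), which takes up filtered albumin and other plasma proteins, fell from 3637 ± 336 to 575 ± 103 CPM (-2.66 ± 0.12, adjusted p = 9.36e-15). Tissue kallikrein (Klk1), which cleaves kininogen, fell from 1225 ± 138 to 253 ± 37.3 CPM (-2.28 ± 0.11, adjusted p = 3.06e-14), and the bradykinin-degrading aminopeptidase Xpnpep2 fell by 3.38 ± 0.23 on the log2 scale (adjusted p = 1.15e-11). Sphingosine kinase 1 (Sphk1, 3.14 ± 0.21, adjusted p = 1.05e-11), the lipoprotein receptor Lrp8 (2.95 ± 0.22, adjusted p = 6.08e-11) and the integrin chain Itgb3 (2.35 ± 0.20, adjusted p = 4.63e-10) rose.

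In co-treated against cisplatin kidneys 2 of these 31 genes were higher and 4 lower (19.4% called, against 10.3% of all genes, median -0.14). Xpnpep2 (2.04 ± 0.22, adjusted p = 9.37e-08) and Lrp2 (1.36 ± 0.11, adjusted p = 1.06e-09) were higher. Itgb3 (-1.79 ± 0.18, adjusted p = 2.74e-08), Tlr4 (-1.25 ± 0.14, adjusted p = 1.91e-07) and Itgam, a chain of the fibrinogen-binding integrin of leukocytes (-1.19 ± 0.34, adjusted p = 0.00482), were lower. The call of Itgam was lost without cisplatin replicate 1 (log2 fold change -1.08, adjusted p = 0.0165) and without co-treated replicates 2 (-1.13, adjusted p = 0.0122) or 6 (-1.08, adjusted p = 0.0129). With the fat covariate it stood at -0.56 (adjusted p = 0.216).

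Regulators of hepatic and acute phase genes mostly rose with cisplatin where they were called. Of 28 genes 24 were tested, 10 rose and 1 fell (45.8% called, against 24.1% of all genes, median 0.44). The interleukin 6 family cytokine Lif rose from 0.628 ± 0.132 to 31.1 ± 3.30 CPM (5.62 ± 0.25, adjusted p = 9.97e-15), and Socs3, a feedback inhibitor induced by this family, from 4.39 ± 2.35 to 69.9 ± 4.83 CPM (3.99 ± 0.29, adjusted p = 2.78e-11). Il6 had 0 to 2 counts in vehicle libraries and 6 to 50 in cisplatin libraries (adjusted p = 1.97e-05). The clock-controlled factor Dbp fell by 1.42 ± 0.35 on the log2 scale (adjusted p = 0.00104).

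Between co-treated and cisplatin kidneys 14 of these 24 genes had an edgeR adjusted p below 0.05. Past the thresholds for calls were 2, both lower (8.33% called, against 10.3% of all genes, median -0.17). Among them Cebpa fell from 32.7 ± 2.90 to 16.1 ± 3.17 CPM (-1.02 ± 0.17, adjusted p = 2.20e-05). The call of Cebpa was lost without cisplatin replicate 5 (log2 fold change -0.966) or co-treated replicate 2, 4 or 5 (-0.995, -0.976 and -0.974), and with the fat covariate (-0.716). The other, Foxa1, whose groups overlapped, is named after its values were seen, with 2.73 ± 0.297 CPM in cisplatin and 1.15 ± 0.825 CPM in co-treated kidneys (-1.25, adjusted p = 0.00481). The count of 2 rests on values near the threshold, being 0 without co-treated replicate 2, 1 without cisplatin replicate 4, and 1 without co-treated replicate 3, 4 or 6. Lif, Socs3 and Il6 were not called there, with 18.7 ± 6.39, 38.6 ± 8.02 and 0.355 ± 0.313 CPM in co-treated kidneys. This does not mean that they were unchanged. The means of Lif and Socs3 were below those of cisplatin kidneys given above. Il6 had 2 to 29 counts in co-treated libraries, against 6 to 50 in cisplatin libraries.

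Genes within 100 kb of the 8 members were called with cisplatin in a share close to that of all genes. Of 43 protein-coding neighbours 35 were tested, and with cisplatin 2 rose and 6 fell (22.9% called, against 24.1% of all genes, median -0.25). The tested neighbour of the fibrinogen genes, the splicing factor Plrg1, had 30.3 ± 2.08 CPM in vehicle kidneys and 29.5 ± 1.10 CPM in cisplatin kidneys and was not called. Near Alb, Afp, the alpha-fetoprotein gene next to it, had 1.24 ± 0.146 CPM in vehicle and 0.970 ± 0.141 CPM in cisplatin kidneys and was not called. Beyond Afp, Afm, which encodes the related protein afamin, fell from 40.3 ± 1.60 to 7.44 ± 2.80 CPM (-2.44 ± 0.17, adjusted p = 1.83e-11), and 5830473C10Rik fell by 3.31 ± 0.40 on the log2 scale (adjusted p = 1.25e-07). Hrg, described with the plasma proteins, lies within 100 kb of Kng1, with Kng2 between them. Near Apom, the chloride channel gene Clic1 (1.12 ± 0.05, adjusted p = 3.69e-15) and Ly6g6e (1.29 ± 0.24, adjusted p = 4.50e-05) rose.

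In co-treated against cisplatin kidneys 2 of the 35 neighbours were called (5.71%, against 10.3% of all genes), Hrg and Afm (1.09 ± 0.17, adjusted p = 7.42e-06), both higher. The count was 4 without co-treated replicate 1 and 1 without cisplatin replicate 1 or co-treated replicate 6, when the log2 fold change of Afm was 0.93 or 0.98.

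Over the 22 kidneys, the 5 tested genes nearest to the mean centred log2 profile of the fibrinogen chains were Ces2e, Gc, Ckap2, Gdf15 and Gtse1. Their root mean square differences were 0.416, 0.420, 0.506, 0.517 and 0.533 on the log2 scale. The chains differed from their mean by 0.240 to 0.245, but each chain is part of that mean, which makes its distance smaller by construction. Gc, the vitamin D binding protein, is also a plasma protein, and had 45.9 ± 9.86, 34.9 ± 7.21, 1062 ± 59.0 and 549 ± 137 CPM in vehicle, KW6002, cisplatin and co-treated kidneys. The carboxylesterase Ces2e had 19.4 ± 1.97, 21.8 ± 2.87, 790.0 ± 55.1 and 367 ± 38.7 CPM, and the stress-induced cytokine Gdf15 had 6.10 ± 1.63, 7.21 ± 1.20, 313 ± 32.0 and 142 ± 28.5 CPM. Nearest to the mean of Alb, Apoh and Apom were Azgp1, Dpyd, Ugt3a2, Susd2 and Cmah, at 0.176, 0.258, 0.270, 0.277 and 0.278. Azgp1 was nearer to that mean than Alb (0.183), Apoh (0.367) or Apom (0.394), although these genes are part of it. Scaling by library size only left all 5 genes of each list in place.

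Markers of other cells were also read beside the 8 genes. Summed neutrophil markers (11 genes, S100a9 the most abundant, Ngp and Mpo at no more than 3 counts in any library) had 10.6 ± 5.98 CPM in vehicle kidneys, 10.1 ± 3.01 in cisplatin kidneys and 6.16 ± 1.29 in co-treated kidneys, with 1 of 7 tested genes rising with cisplatin and 1 falling with co-treatment, counts that ran from 0 to 2 under the alternatives. The macrophage list (6 genes, led by Lyz2) had 250 ± 112, 226 ± 32.4 and 140 ± 27.3 CPM, with 1 gene rising and 1 falling with cisplatin and 1 falling with co-treatment. The platelet list (7 genes, led by Itga2b, Gp1ba and Gp6 at no more than 3 counts) had 10.6 ± 1.32, 10.9 ± 0.674 and 10.2 ± 0.690 CPM, and edgeR called 0 of its 2 tested genes in these comparisons, with 0 at an adjusted p below 0.05.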

How the data were processed

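According to the submitters' processing notes and the study's methods, the authors sequenced stranded polyA libraries as single 50-base reads, aligned these to mm10 using STAR, kept unique alignments and deposited raw counts per Ensembl gene from HTSeq 0.6.1p1. Whether strand was used in counting is not given in the sources used here. Another 66 columns without name or value were not used. Symbols, exon lengths and positions came from GENCODE M21 (32824 of 32858 genes matched).

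Counts were analysed in R 4.3.3 with edgeR 4.0.16: filterByExpr kept 17131 genes, TMM scaled the libraries, 1 mean was fitted per group over 22 libraries, and quasi-likelihood F tests were adjusted by Benjamini-Hochberg over all tested genes. Genes were called where the adjusted p was under 0.01 with an absolute log2 fold change over 1. Log2 CPM used a prior count of 2. Covariation within groups was tested with 100000 2-sided permutations of kidneys within groups.

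The 8 genes, the 4 pathway lists and the 13 marker lists were chosen with earlier results of these data known. The genes named were, per list, up to 3 called genes in each direction with the largest log2 fold change and no overlap between groups, the 5 genes nearest to each mean profile, and the most abundant gene of each marker list, except for a gene not reported here. Alternatives were DESeq2 1.42.0, other scalings and filters, fits of 2 groups, a replicate block, the label series, and leave-one-out fits. The relations to marker sums, the marker counts under the alternatives, the likeness lists with library size scaling and the fat covariate were chosen after seeing the data.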

Additional observations from a re-analysis of the deposited data

Results flagged for a closer look

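In 32 groups of 5 or 6 kidneys (8 genes in 4 groups), 3 single kidneys lay far from the rest of their group, and chance alone marks about 1 group in 20. Fga in cisplatin replicate 2 was the highest of its group at 1089 CPM. Fgb in vehicle replicate 5 was the lowest of its group at 1.43 CPM. Hp in KW6002 replicate 1 was the highest of its group at 58.2 CPM, in a kidney whose summed fat markers, 1090 CPM, were also the highest of that group.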

How the results depend on the processing

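Log2 fold changes of the 8 genes that were past the thresholds kept their sign under the alternatives. Of 1020 values, past the thresholds or not, 10 moved by more than the spread between kidneys, 6 of them not past the thresholds; the cause was not tested. Of these 6, Hp changed sign from -0.97 (KW6002 against vehicle), from -1.06 (co-treated against cisplatin) and, in both settings, from -0.76 (co-treated against vehicle). With the label series as a covariate, Fga and Fgb moved to 5.22 and 5.92 (cisplatin against vehicle) and to 4.70 and 5.08 (co-treated against vehicle). In mice numbered in the 500s alone, Hp moved to 2.29 (cisplatin against vehicle), 0.61 (KW6002 against vehicle) and 1.23 (co-treated against vehicle), and Fgb to -1.21 (KW6002 against vehicle). With the fat covariate, Hp moved to 1.16 (co-treated against cisplatin) and 2.31 (co-treated against vehicle), and 0 regulators were called between co-treated and cisplatin kidneys. Requiring 10 counts in every library, which tests fewer genes, gave 2749, 1043 and 1304 calls for cisplatin against vehicle, co-treated against cisplatin and co-treated against vehicle in place of 4137, 1766 and 2300. It also gave 7 and 1 regulators and 3 and 1 neighbours in the first and second of these. KW6002 against vehicle gave 4 calls with DESeq2, 4 with the label series, 1 in the 500s alone and 0 to 2 with a library left out. Regulators called between co-treated and cisplatin kidneys ranged from 0 to 2, and neighbours from 1 to 4, with a library left out, and a fit of the 2 groups gave 1 neighbour. Named list genes lost their call in 13 of 1425 refits and none changed sign. Among the pairs, Fga with Apoh passed an adjusted p of 0.05 in the 500s alone, and Fgb with Fgg and Alb with Apoh did not.

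With the replicate block, 4105, 1715, 0 and 2296 genes were called in the 4 comparisons, and 1 regulator in place of 2 between co-treated and cisplatin kidneys. The replicate numbers were not taken to pair the mice. Over 31 pairs with the same number in different groups the correlation of deviations ran from -0.175 to 0.405. Its median was 0.008, against -0.001 for pairs with other numbers. Of 22 kidneys, 8 matched best with a kidney of their own number, a count for which no chance value is given.

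Limits are few counts (9 to 93 for Kng1), label series confounded in part with treatment, and mixed cells in bulk tissue. Kng1 had the fewest counts of the 8, and Hp the largest standard error in each comparison.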
